A study of Rattus norvegicus with 63 samples.

Results

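The kainate receptor subunit genes are Grik1, Grik2, Grik3, Grik4 and Grik5, which are 5 of the 720 genes named on the array and are read by 6 of its 1263 probe sets other than controls. A probe set was counted as a member where the platform annotation gives one of these symbols as its only gene, so no measured value entered the choice. Grik1 is read by M83561_s_at, Grik2 by Z11548_at, Grik3 by AF027331_at, Grik5 by Z11581_at, and Grik4 by both U08257_at and X59996mRNA_s_at. The suffix _s_at of the Grik1 set and of the second Grik4 set marks probes that can also match other transcripts. RefSeq holds all 5 genes under the Entrez identifiers of the annotation.

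The arrays came from rats that gave themselves intravenous cocaine at 0.25 mg per injection for 1 h a day (short access) or 6 h a day (long access), and from drug-naive rats with 0 h of access (no access). The labels give 8 rats per group, and no strain or age was used here. Total RNA from 6 dissected brain regions was hybridised to 63 rat neurobiology arrays. Each access group had 4 arrays in the nucleus accumbens, amygdala and lateral hypothalamus and 3 in the medial prefrontal cortex, septum and ventral tegmental area. The labels do not say whether an array holds 1 rat or pooled rats, so every p measures only how much these arrays spread.

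Kainate receptors are glutamate-gated cation channels built as tetramers. The products of Grik1, Grik2 and Grik3 (GluK1, GluK2 and GluK3) can form working channels without the other subunits, whereas those of Grik4 and Grik5 (GluK4 and GluK5) bind kainate with high affinity and need a partner from the first set to form a channel. The receptors sit on both sides of the synapse, where they carry slow excitatory currents and adjust the release of glutamate and GABA.

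All values here are log2 of the MAS5 signal after each array was rescaled to the same trimmed mean, with a floor of 5 on the log2 scale, and levels are compared between arrays for 1 probe set at a time. On each array 17.3% to 25.1% of probe sets were at the floor. Markers of the dissected region read higher there than on average in the other 5 regions in every case tested (accumbens 7, ventral tegmental area 5, lateral hypothalamus 4, cortex 4, amygdala 3) except in the septum, where 2 were higher and 1 lower. The marker lists were chosen with earlier results of these data known, so they are no independent check of the dissections. In the lateral hypothalamus, the controls set the 4 no-access arrays apart from the 8 cocaine arrays. The mean of their 6 antisense controls, probe sets that should find little target, was 8.13 ± 0.21 (SD) against 6.84 ± 0.17 with short and 6.75 ± 0.15 with long access. The mean of their 9 bacterial spike-in controls was 12.05 ± 0.14 against 11.61 ± 0.27 and 11.39 ± 0.12. Exact permutation (two-sided) gave each of these differences from no access p = 0.0286, as low as 4 against 4 arrays can go, and 0.30 after adjustment over 72 such comparisons. Among the other 5 regions, all 4 of these arrays correlated best over 858 probe sets with the ventral tegmental area, and all 8 cocaine arrays with the septum. The difference of long from short access takes no level from the no-access arrays, although they enter its estimate of the spread, and it is given beside each result that rests on them.

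Grik4, which encodes a high-affinity subunit, was highest in the ventral tegmental area and the lateral hypothalamus by both of its probe sets. Over the arrays of a region, U08257_at ran from 8.60 to 9.01 with a median of 8.91 in the ventral tegmental area. It ran from 7.95 to 9.08 with a median of 8.64 in the lateral hypothalamus. In the medial prefrontal cortex it ran from 7.50 to 8.37 with a median of 7.79. The ventral tegmental arrays lay above every array of the cortex, whereas those of the lateral hypothalamus overlapped them. In the septum the range was 6.98 to 8.44 with a median of 7.60, in the nucleus accumbens 6.99 to 8.05 with a median of 7.56, and in the amygdala 6.79 to 7.92 with a median of 7.42. These last ranges overlapped each other almost fully. In order of the mean, the regions read 8.82 in the ventral tegmental area, 8.56 in the lateral hypothalamus, 7.82 in the cortex, 7.62 in the septum, 7.54 in the accumbens and 7.39 in the amygdala. Of the 5 steps between neighbours in that order, the step of 0.74 from the lateral hypothalamus to the cortex passed the limma test (adjusted p = 1.43e-06). The others did not, the ventral tegmental area and the lateral hypothalamus differing by 0.26 (adjusted p = 0.0856).

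**Figure D1:**
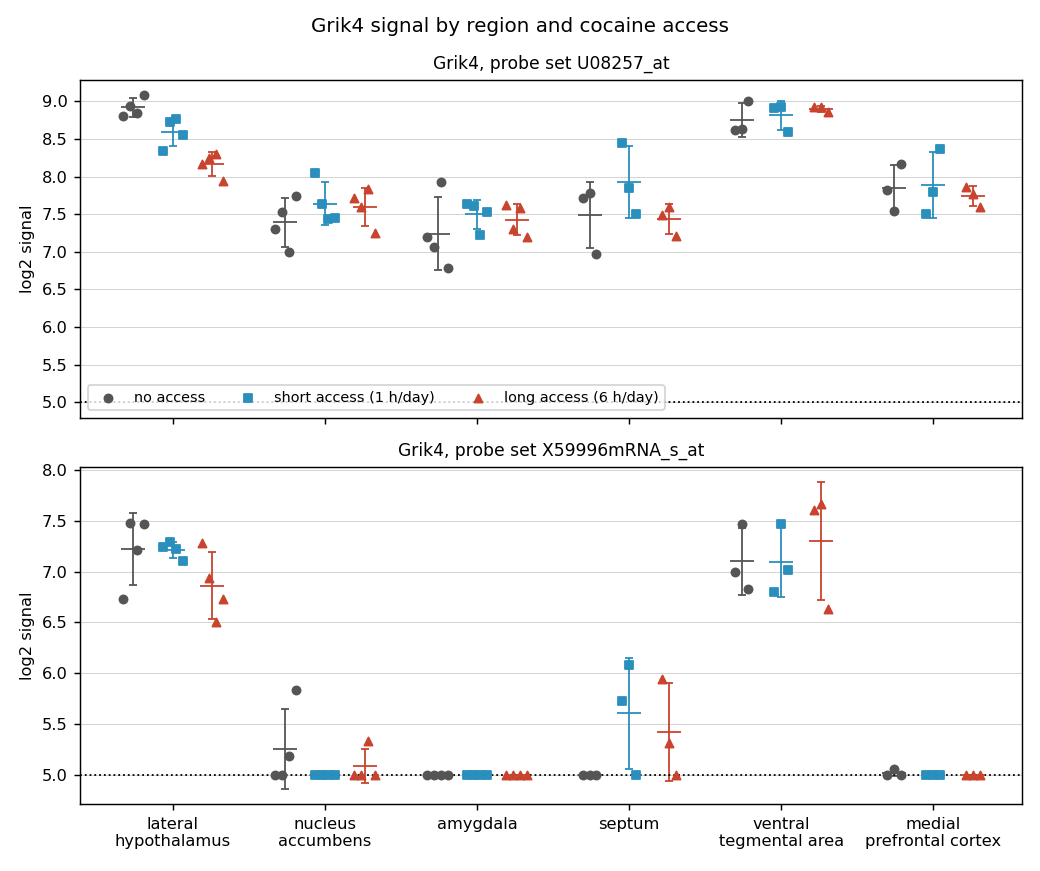
Log2 signal of the 2 Grik4 probe sets on each of the 63 arrays, by region on the horizontal axis and by access group (grey circles no access, blue squares short, red triangles long), with the group mean and SD as bars and the floor of 5 as a dotted line. Both probe sets are highest in the lateral hypothalamus and ventral tegmental area, and X59996mRNA_s_at lies at the floor on 34 arrays of the other regions.

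The second Grik4 probe set, X59996mRNA_s_at, showed the same 2 regions more sharply because it was at or near the floor elsewhere. It ran from 6.64 to 7.67 with a median of 7.02 in the ventral tegmental area and from 6.50 to 7.48 with a median of 7.22 in the lateral hypothalamus. It was at the floor on all 12 arrays of the amygdala, 8 of 9 of the medial prefrontal cortex, 9 of 12 of the nucleus accumbens and 5 of 9 of the septum. No array of those 4 regions, whose highest value was 6.08 in the septum, reached the lowest value of the lateral hypothalamus or the ventral tegmental area. The step from the lateral hypothalamus (mean 7.10) down to the septum (5.34) was 1.76 with an adjusted p of 1.1e-16 in limma. A difference against a group at the floor depends on where the floor is set and understates the fold. This set reached the minimum mean signal only in these 2 regions, and it entered the regional tests through them. Its regional differences and their p are therefore no separate support for the pattern of U08257_at.

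Set against the mean of the other 5 regions, Grik4 by U08257_at was higher by 1.04 ± 0.10 (log2, SE; 2.05-fold) in the ventral tegmental area and by 0.72 ± 0.09 (1.65-fold) in the lateral hypothalamus. It was lower in the amygdala (-0.68), the nucleus accumbens (-0.50) and the septum (-0.41), and its difference in the medial prefrontal cortex (-0.16) did not pass (adjusted p = 0.164). X59996mRNA_s_at differed by 1.66 ± 0.11 and 1.58 ± 0.10 in the first 2 regions and was lower in the other 4, by -0.54 to -0.95. These sizes depend on the floor. With no floor they were 2.21 in the ventral tegmental area, 2.13 in the lateral hypothalamus and -1.01 to -1.72 in the accumbens, cortex and amygdala, and the difference in the septum did not pass (-0.35, adjusted p = 0.116). Without any no-access array the excess in the lateral hypothalamus was 0.49 ± 0.11 for U08257_at (adjusted p = 0.000267) and 1.49 ± 0.12 for X59996mRNA_s_at (adjusted p = 4.42e-16). In a dissected tissue, more cells that express a gene and more RNA per cell cannot be told apart.

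Grik5, which encodes the other high-affinity subunit, ran the opposite way. Its arrays spanned 8.70 to 9.56 with a median of 9.01 in the ventral tegmental area and 9.35 to 10.43 with a median of 10.16 in the lateral hypothalamus. In the septum they spanned 10.34 to 10.57 with a median of 10.47, a narrow band. The medial prefrontal cortex ran from 10.01 to 10.99 with a median of 10.74, the amygdala from 10.12 to 11.17 with a median of 10.86, and the nucleus accumbens from 10.74 to 11.17 with a median of 11.03. Every ventral tegmental array lay below every array of the septum, cortex, amygdala and accumbens. In order of the mean, Grik5 fell from 10.97 in the nucleus accumbens through 10.78 in the amygdala, 10.64 in the cortex, 10.46 in the septum and 10.00 in the lateral hypothalamus to 9.07 in the ventral tegmental area. The last 2 steps passed the limma test, septum to lateral hypothalamus at 0.46 (adjusted p = 0.000378) and lateral hypothalamus to ventral tegmental area at 0.93 (adjusted p = 2.48e-10). The first 3 steps did not.

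Against the mean of the other 5 regions, Grik5 was lower by 2.82-fold in the ventral tegmental area (-1.49 ± 0.09, adjusted p = 2.52e-21) and lower in the lateral hypothalamus (-0.38 ± 0.08, adjusted p = 4.16e-05). The second of these did not pass without the no-access arrays (-0.21 ± 0.10, adjusted p = 0.0643). Grik5 was higher in the nucleus accumbens (0.78 ± 0.08), the amygdala (0.55 ± 0.08) and the medial prefrontal cortex (0.38 ± 0.09), and its difference in the septum (0.17) did not pass (adjusted p = 0.112).

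**Figure D2:**
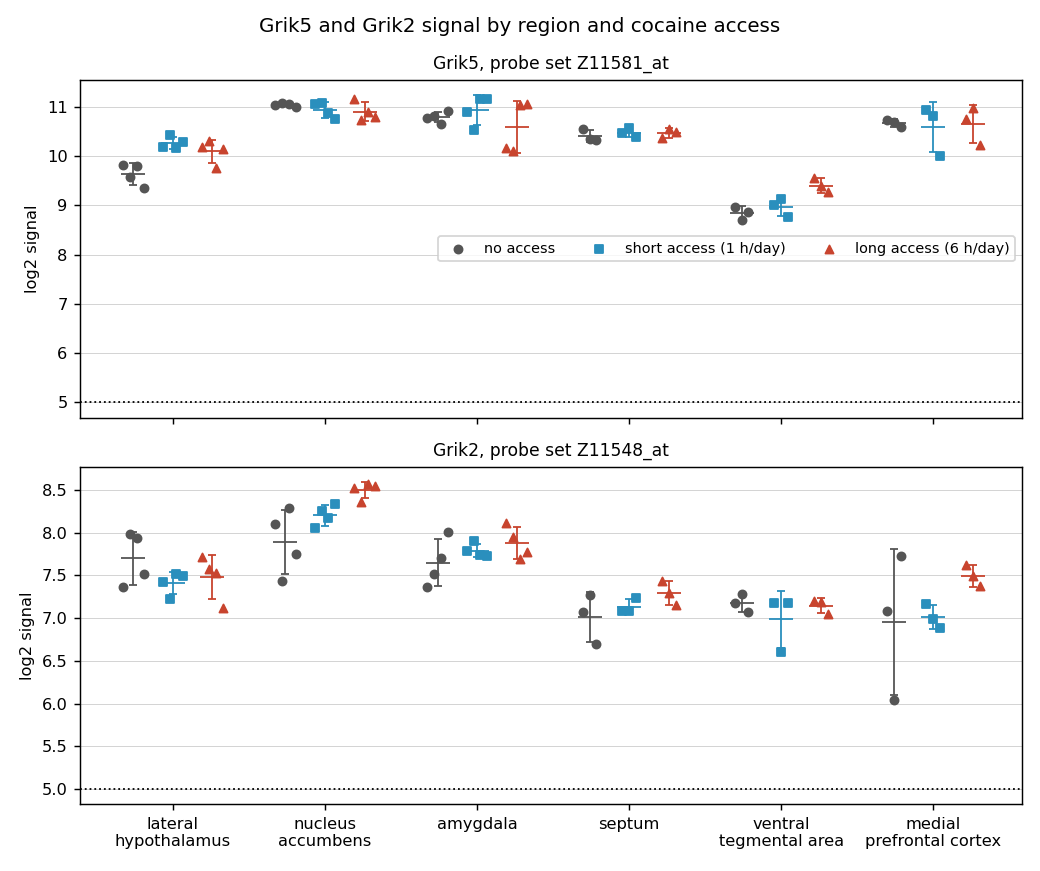
Log2 signal of Grik5 (upper panel) and Grik2 (lower panel, its own scale) on each of the 63 arrays, by region on the horizontal axis and by access group (grey circles, blue squares and red triangles for no, short and long access), with the group mean and SD as bars and the floor as a dotted line. Grik5 is lowest in the ventral tegmental area (mean 9.07) and Grik2 is highest in the nucleus accumbens (mean 8.20).

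Grik2, which encodes a core subunit able to form channels without the others, was highest in the nucleus accumbens. There it ran from 7.43 to 8.57 with a median of 8.27, against 7.37 to 8.11 with a median of 7.76 in the amygdala and 7.12 to 7.99 with a median of 7.52 in the lateral hypothalamus. The 3 ranges overlapped. The medial prefrontal cortex ran from 6.05 to 7.73 with a median of 7.16, the septum from 6.70 to 7.44 with a median of 7.16 and the ventral tegmental area from 6.60 to 7.29 with a median of 7.18. The highest septal array only just reached the lowest accumbal one, and every ventral tegmental array lay below it. The order of the means was 8.20, 7.77, 7.53, 7.15, 7.15 and 7.10 in the accumbens, amygdala, lateral hypothalamus, cortex, septum and ventral tegmental area. The steps from accumbens to amygdala (0.42, adjusted p = 0.0018) and from lateral hypothalamus to cortex (0.38, adjusted p = 0.00662) passed in limma, and the other 3 did not.

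Against the other 5 regions Grik2 was higher by 0.86 ± 0.09 (1.81-fold) in the accumbens and 0.35 ± 0.09 in the amygdala. It was lower in the ventral tegmental area (-0.46), the septum (-0.41) and the medial prefrontal cortex (-0.40), each with an SE of 0.10. In the lateral hypothalamus the difference was 0.06 (adjusted p = 0.615). On no-access arrays alone the amygdala (0.30, adjusted p = 0.133) and the ventral tegmental area (-0.26, adjusted p = 0.222) did not pass.

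Over these 4 probe sets, 21 of the 24 differences from the mean of the other regions passed the test, 9 higher and 12 lower. Of all 5148 such differences over the 858 probe sets tested, 59.7% passed (29.2% higher and 30.5% lower), so that most probe sets of the array differ between regions. Of the 60 differences between pairs of regions, 42 passed, against 58.3% of all. Grik5 differed in 12 of its 15 pairs, Grik2 in 11, and Grik4 in 9 by U08257_at and 10 by X59996mRNA_s_at. Both counts include X59996mRNA_s_at, which entered the fit only through the 2 regions where it was high.

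Grik1 and Grik3, the other 2 core subunits, were dim, and neither probe set reached the minimum mean signal in any region, so their levels are given with no test. Grik1 had a mean of 5.65 over the 63 arrays, with 6 arrays at the floor, and its region means ran from 5.28 in the nucleus accumbens and 5.32 in the ventral tegmental area to 6.13 in the amygdala. Its amygdala arrays spanned 5.58 to 6.94 and overlapped those of every other region. Grik3 had a mean of 6.13 with 2 arrays at the floor, and region means from 5.88 in the accumbens to 6.45 in the lateral hypothalamus. Its arrays spread widely within a region (SD 0.49 to 0.81), and the ranges of all 6 regions overlapped.

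**Figure D3:**
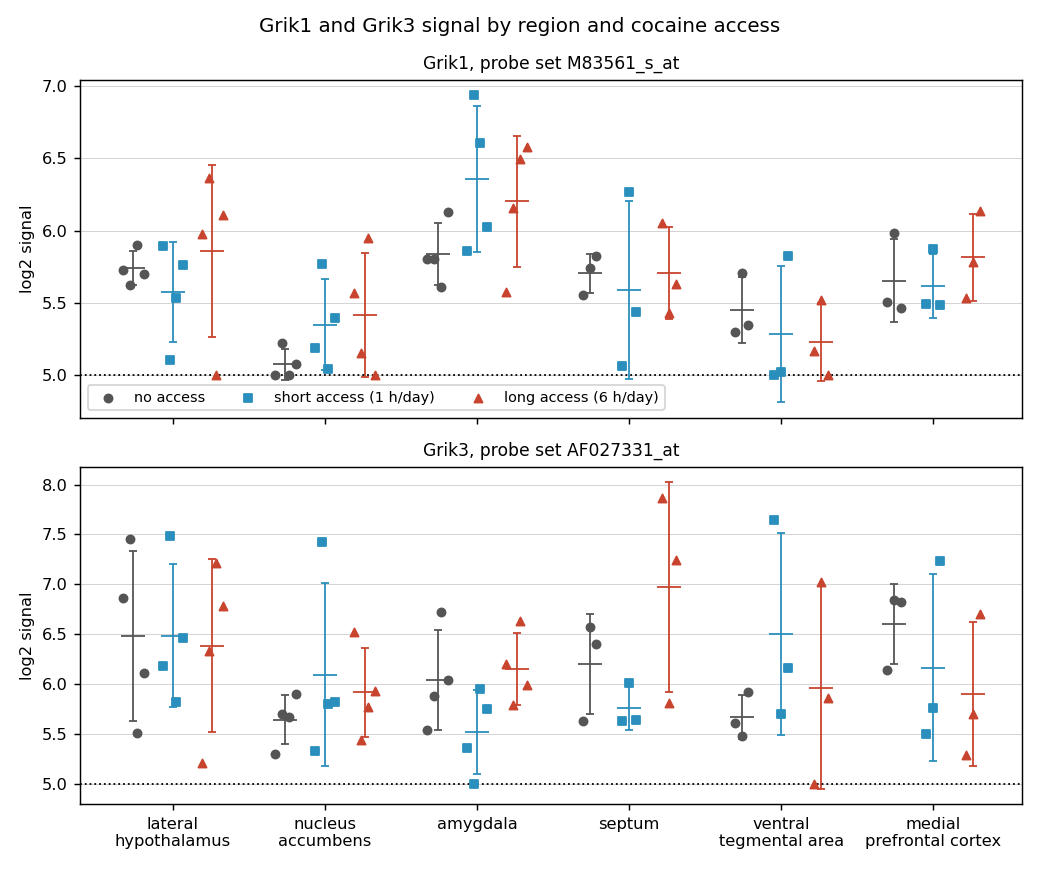
Log2 signal of Grik1 (upper panel) and Grik3 (lower panel, its own scale) on each of the 63 arrays, by region on the horizontal axis and by access group (grey circles no access, blue squares short, red triangles long), with the group mean and SD as bars and the floor of 5 as a dotted line. Several arrays of each gene lie at or near the floor, and the access groups overlap in nearly every region.

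The stretches of 250 bases before the annotated start of the genes that differ most between regions are shown because Grik4 and Grik5 have opposite regional patterns and Grik2 another. They were taken from RefSeq on the rat build GRCr8 and are written 5′ to 3′ on the strand of the gene, which is the minus strand for all 3. Capitals mark matches, on both strands, to the TATA box letters TATAAA, the GC box letters GGGCGG, the core TGACG of the cAMP response element and the CCAAT box letters CCAAT. None of these motifs overlaps another by its letters. Grik4 lies at chr8:52102064-52102313, Grik5 at chr1:89794910-89795159 and Grik2 at chr20:54415284-54415533.
Grik4: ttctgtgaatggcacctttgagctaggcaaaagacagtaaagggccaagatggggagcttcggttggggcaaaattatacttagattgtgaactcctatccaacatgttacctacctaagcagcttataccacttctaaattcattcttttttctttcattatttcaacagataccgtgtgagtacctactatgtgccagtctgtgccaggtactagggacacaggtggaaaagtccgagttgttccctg
Grik5: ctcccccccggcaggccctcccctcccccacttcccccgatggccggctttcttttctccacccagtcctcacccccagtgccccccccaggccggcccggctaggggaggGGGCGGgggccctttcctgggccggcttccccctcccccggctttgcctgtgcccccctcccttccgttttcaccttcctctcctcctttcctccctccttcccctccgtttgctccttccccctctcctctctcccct
Grik2: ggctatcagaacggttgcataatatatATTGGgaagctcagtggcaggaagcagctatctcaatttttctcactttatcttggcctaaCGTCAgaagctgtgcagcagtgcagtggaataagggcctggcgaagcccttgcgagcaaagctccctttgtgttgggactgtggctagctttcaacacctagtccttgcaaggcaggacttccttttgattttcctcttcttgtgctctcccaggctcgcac
The Grik4 stretch is 43.2% G and C and holds 0 of the 4 motifs. The Grik5 stretch is 70.8% G and C and holds 1 GC box, whereas the Grik2 stretch, at 49.6%, holds 1 cAMP response core and 1 CCAAT box. Of 33469 such stretches in the RefSeq table, 30.5% hold a GC box, 34% a CCAAT box, 18.2% the cAMP response core and 12.9% a TATA box, and the median G and C content is 51.2%. A match says only that the letters are there.

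Region accounted for most of the variation of all 4 probe sets over the 63 arrays. For Grik4 region took 76.5% of the sum of squares by U08257_at and 92.7% by X59996mRNA_s_at. The second share depends on the floor, where that set lay on 34 of the 63 arrays. The filter also admitted that set only through the 2 regions where it was high. For Grik5 region took 84.3% and for Grik2 66.7%, against a median of 57.8% over the 858 probe sets tested. Access took 0.0398% to 4.34%, and the combination of region and access 1.76% to 6.97%, against medians of 1.16% and 7.04%. The spread within a group of like arrays (SD) was 0.28 for both Grik4 sets, 0.25 for Grik5 and 0.27 for Grik2, a little under the median of 0.31. For X59996mRNA_s_at this includes groups wholly at the floor, with an SD of 0. In the lateral hypothalamus and ventral tegmental area its group SDs ran from 0.08 to 0.58.

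Over the 18 group means of region and access, the 2 Grik4 probe sets had a Pearson correlation of 0.93. Grik5 correlated with them at -0.87 (U08257_at) and -0.85 (X59996mRNA_s_at). The points share their regions, which carry nearly all of this. Over the 63 deviations of single arrays from their group mean, Grik5 correlated with the 2 sets at -0.15 and 0.03, and the 2 Grik4 sets with each other at 0.21. In groups wholly at the floor X59996mRNA_s_at has no deviations, which limits its values here. Grik2 correlated with Grik5 at 0.50 and with the Grik4 sets at -0.39 and -0.30 over the 18 means.

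**Figure D4:**
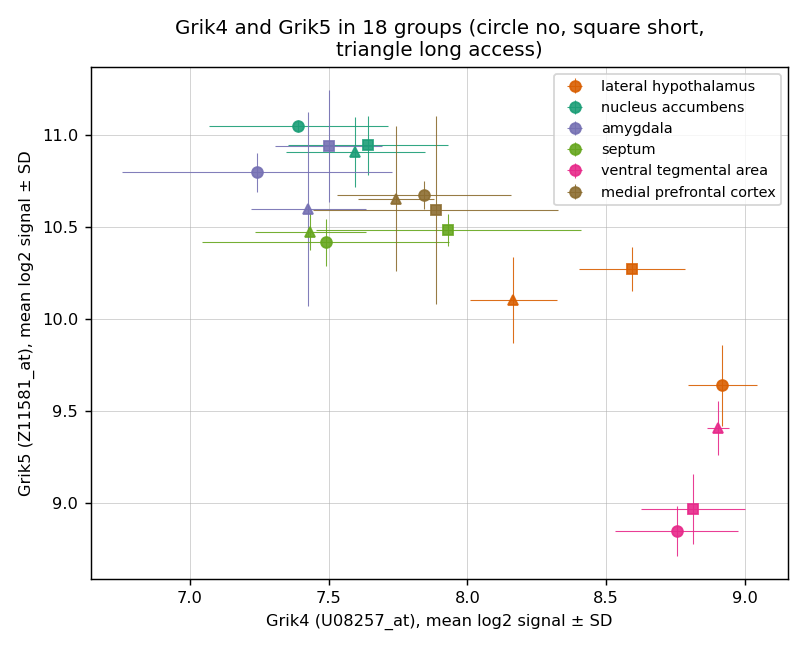
Mean log2 signal of Grik5 (vertical axis) against that of Grik4 by U08257_at (horizontal axis) for the 18 groups of region and access, with colour for the region, marker shape for the access group and bars for the SD of each group. The ventral tegmental area and lateral hypothalamus lie at the lower right, and the no-access group of the lateral hypothalamus (Grik4 8.92, Grik5 9.64) is the group of that region nearest to the ventral tegmental area.

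The genes whose pattern over the 18 group means was most like each probe set were found among up to 775 named probe sets. Nearest to Grik2 were Tac3 (r = 0.91), which encodes neurokinin B, Penk (0.86), which encodes the enkephalin precursor and is abundant in striatal neurons, and Rxrg (0.84), a retinoid receptor. Nearest to Grik5 were both probe sets of Cx3cl1 (0.97 and 0.96), which encodes the neuronal chemokine fractalkine, and Ctxn1 (0.96). Nearest to U08257_at of Grik4 were Hspd1 (0.95), a mitochondrial chaperone, Mapk6 (0.94) and Stx12 (0.93), and nearest to X59996mRNA_s_at were Hspd1 (0.94), Stx4 (0.94) and Slc2a1 (0.94), the glucose transporter of the blood-brain barrier. Over the 63 single arrays these correlations were 0.74 to 0.92. The sets named for Grik2 and Grik5 were still the nearest 3 there, but most of those named for Grik4 were not. For U08257_at, Hspd1 ranked 15, Mapk6 9 and Stx12 4. For X59996mRNA_s_at, which was at the floor on 34 arrays, Hspd1 ranked 31, Stx4 23 and Slc2a1 3.

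The access groups were then compared within each region, the question the study's design was built for. The 3 comparisons of a region share arrays, and each is given with its own values. Of 60 differences tested for the kainate receptor probe sets, 5 passed the threshold (3 higher and 2 lower) and 8 had an unadjusted p under 0.05. Of all 12978 such differences on the array, 4.09% passed (1.94% higher and 2.15% lower). The calls were 4 of 12 in the lateral hypothalamus and 1 of 12 in the ventral tegmental area. In the lateral hypothalamus 29.7% of all probe sets passed for long against no access. There 22.4% passed for short against no access and 8.91% for long against short access. The same shares in the ventral tegmental area were 2.91%, 0.831% and 2.63%.

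In the lateral hypothalamus Grik4 was lower and Grik5 higher with cocaine. Grik4 by U08257_at read 8.81, 8.94, 8.84 and 9.08 on the no-access arrays. It read 8.34, 8.72, 8.76 and 8.55 with short access and 8.17, 8.25, 8.30 and 7.95 with long access. The 3 groups did not overlap, with no access highest and long access lowest. Long access was lower than no access by 1.69-fold (-0.75 ± 0.12, adjusted p = 0.000337), in a comparison where 29.7% of the 718 probe sets tested passed. In the same comparison 29.8% of probe sets had groups that did not overlap.

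Long access was also lower than short access, by 1.35-fold (-0.43 ± 0.12, adjusted p = 0.0476), in a comparison where 8.91% passed and 18.2% did not overlap. This call was close to the threshold. In a fit of those 2 groups alone, with no no-access array, the difference was -0.43 ± 0.13 and did not pass (adjusted p = 0.0576). It held in 2 of the 12 fits that leave out 1 array of the region (short-access replicate 1 or no-access replicate 4) and failed in the other 10, where the difference was -0.35 to -0.47 and the adjusted p at most 0.133. Short access was lower than no access by -0.33 ± 0.12, which did not pass (adjusted p = 0.0739), in a comparison where 22.4% passed and 25.9% did not overlap.

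The second Grik4 probe set was less clear. X59996mRNA_s_at read 6.73, 7.48, 7.21 and 7.47 with no access, 7.24, 7.29, 7.22 and 7.11 with short and 7.28, 6.94, 6.50 and 6.73 with long access, and the groups overlapped. Its differences were -0.36 ± 0.20 for long against no access (adjusted p = 0.208), -0.35 ± 0.20 for long against short (adjusted p = 0.301) and -0.01 for short against no access (adjusted p = 0.974). Neither long-access difference passed. The 95% interval of the first, -0.80 to 0.08, holds the value of U08257_at (-0.75) near its lower end and also includes no difference. The interval of U08257_at, -1.02 to -0.49, does not hold the -0.36 of X59996mRNA_s_at.

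Grik5 in the lateral hypothalamus read 9.82, 9.57, 9.81 and 9.35 with no access. It read 10.19, 10.43, 10.17 and 10.29 with short access and 10.19, 10.30, 9.77 and 10.15 with long access. Every short-access array lay above every no-access array, as did all but 1 of the long-access arrays. Between short and no access 25.9% of all probe sets tested did not overlap and 22.4% passed. For long against no access 29.7% passed. Grik5 was higher by 1.55-fold with short access (0.63 ± 0.13, adjusted p = 0.00345) and by 1.38-fold with long access (0.46 ± 0.13, adjusted p = 0.0153). Without long-access replicate 2 the second difference was 0.39 with an adjusted p of 0.0517. Long and short access differed by -0.17 (95% interval -0.45 to 0.11, adjusted p = 0.449).

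Both Grik5 calls and the Grik4 call against no access rest on the 4 arrays that stood apart in their controls. With the spike-in level of each array in the fit, the Grik4 difference for long against no access was -0.71 ± 0.25 (adjusted p = 0.103) and those of Grik5 were 0.88 ± 0.23 with long (adjusted p = 0.0285) and 0.91 ± 0.17 with short access (adjusted p = 0.00414). With the antisense level in the fit, none of the 3 passed: Grik4 was -0.56 ± 0.47 (adjusted p = 0.537), and Grik5 changed sign, to -0.36 ± 0.44 with long (adjusted p = 0.683) and -0.14 ± 0.42 with short access (adjusted p = 0.883). All 4 no-access arrays lay above the other 8 in the spike-in measure and in the antisense measure, so neither can be told apart from the access group. The difference of Grik4 between long and short access, groups with like antisense levels (two-sided exact permutation p = 0.514), was -0.41 ± 0.13 with the antisense level in the fit (adjusted p = 0.055). With the spike-in level it was -0.41 ± 0.15 (adjusted p = 0.121 in limma). The actin 3′/5′ log2 ratio, a sign of RNA quality, averaged 0.20 with long and 0.36 with short access (exact permutation p = 0.0571). With that ratio in the fit the Grik4 difference was -0.51 ± 0.15 (adjusted p = 0.0648 in limma).

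The no-access group of the lateral hypothalamus was also the one nearest to the ventral tegmental area in both genes. Of the 5 ventral tegmental markers, which mark dopamine neurons, 3 could be tested in the lateral hypothalamus. For long against no access 1 passed, as higher, where 29.7% of all probe sets passed. For short against no access another 1 passed, as lower, where 22.4% did. Th, which encodes tyrosine hydroxylase, was 9.02, 9.35 and 9.54 on average with no, short and long access (long against no access 0.52, adjusted p = 0.0194). Ddc, which encodes the enzyme that turns L-DOPA into dopamine, was 9.31, 8.94 and 9.09, lower with short than with no access (-0.37, adjusted p = 0.0359) but not past the threshold with long access (-0.22, adjusted p = 0.192). Slc6a3, the dopamine transporter, was 7.35, 6.77 and 6.47 (long against no access -0.88, adjusted p = 0.112). The summed signal of the 5 ventral tegmental markers was 1333 to 1534 with no, 1191 to 1584 with short and 1354 to 1706 with long access, against 20081 to 23522 over the arrays of the ventral tegmental area. The summed astrocyte markers were 66841 to 75267 with no, 53236 to 65487 with short and 47518 to 59545 with long access, with 1 of 7 higher and 3 lower for long against no access. Of 5 oligodendrocyte markers tested, 2 were higher and 2 lower, and both microglial markers tested were lower. Of all 718 probe sets tested, 13.4% were higher and 16.3% lower for long against no access. The part of these markers in the differences of Grik4 and Grik5 was not tested.

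In the ventral tegmental area Grik5 was higher with long access. It read 8.97, 8.70 and 8.88 with no access, 9.01, 9.13 and 8.76 with short and 9.56, 9.39 and 9.27 with long access. The 3 long-access arrays lay above the 3 no-access arrays. Long access was higher than no access by 1.47-fold (0.56 ± 0.13, adjusted p = 0.0397), in a comparison where 2.91% of 722 probe sets passed and 24.1% did not overlap. The difference of long from short access was 0.44 ± 0.13 and did not pass (adjusted p = 0.119, where 2.63% of all passed). That of short from no access was 0.12 ± 0.13 and did not pass either (adjusted p = 0.887, where 0.831% passed).

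This call too was close to the threshold. It held without short-access replicate 2 or 3 and failed without any of the other 7 arrays (no-access replicates 1, 2 and 3, short-access replicate 1, long-access replicates 1, 2 and 3), where the difference was 0.48 to 0.63 and the adjusted p 0.0542 to 0.178. The controls moved with access here as well. The mean antisense control was 7.10, 7.41 and 8.04 and the mean spike-in control 11.55, 11.95 and 12.32 with no, short and long access, each with p = 0.1 for long against no access, the smallest that 3 against 3 allow in the exact permutation test. With the antisense level in the fit the Grik5 difference was 1.32 ± 0.47 (adjusted p = 0.288) and with the spike-in level 0.51 ± 0.48 (adjusted p = 0.797). The actin 3′/5′ log2 ratio was -0.01, 0.26 and 0.19 (p = 0.1 for long against no access by exact permutation), and with it in the fit the difference was 0.66 ± 0.25 (adjusted p = 0.415). The part of these measures in the Grik5 difference cannot be told apart from that of access.

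Grik4 in the ventral tegmental area read 8.62, 8.63 and 9.01 with no, 8.91, 8.93 and 8.60 with short and 8.92, 8.93 and 8.86 with long access by U08257_at. The groups overlapped, and long access differed from no access by 0.15 (95% interval -0.16 to 0.46, adjusted p = 0.666). X59996mRNA_s_at read 7.00, 7.47 and 6.83 with no, 6.80, 7.47 and 7.02 with short and 7.61, 7.67 and 6.64 with long access, a difference of 0.20 (-0.45 to 0.85, adjusted p = 0.833). Grik2 differed by -0.03 (-0.48 to 0.41).

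In the nucleus accumbens Grik2 had its highest values with long access, but no difference passed there. It read 8.10, 7.43, 8.28 and 7.75 with no access, 8.05, 8.26, 8.17 and 8.33 with short and 8.52, 8.36, 8.57 and 8.54 with long access. All 4 long-access arrays lay above the 4 no-access arrays. The difference of long from no access was 0.61 ± 0.16 (95% interval 0.26 to 0.95, unadjusted p = 0.00203, adjusted p = 0.132 by limma), and 9.76% of probe sets had groups that did not overlap in this comparison. The actin 3′/5′ ratio, a sign of RNA quality, moved with access there, at a mean log2 ratio of 0.12, 0.19 and 0.27 with no, short and long access (two-sided exact permutation p = 0.0286 for both against no access, adjusted p = 0.30). With that ratio in the fit the Grik2 difference was 0.94 ± 0.35 (adjusted p = 0.937). In the accumbens 0% of 738 probe sets passed in any of the 3 comparisons, and of the 9 differences of kainate receptor probe sets 0 passed and 1 had an unadjusted p under 0.05. Grik4 differed there by 0.21 and Grik5 by -0.14 between long and no access, with overlapping groups.

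In the amygdala, septum and medial prefrontal cortex 0 of 9 differences passed in each region in limma, and 0 had an unadjusted p under 0.05. The share of all probe sets that passed was 0.137% for long against no access in the amygdala and 0% in its other comparisons and throughout the cortex. In the septum it was 2.31% for long against no, 1.9% for short against no and 2.04% for long against short access. The widest in the amygdala was -0.34 for Grik5 between long and short access, where the long-access arrays read 10.16, 10.12, 11.05 and 11.06, a low pair and a high pair. The widest in the septum was -0.50 for Grik4 by U08257_at between long (7.49, 7.60 and 7.21) and short access (8.44, 7.85 and 7.50), 2 groups that overlapped. The widest in the cortex was 0.54 for Grik2 between long (7.62, 7.49 and 7.37) and no access (7.08, 6.05 and 7.73), with a 95% interval of -0.34 to 1.42 set by the spread of the no-access arrays.

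**Figure D5:**
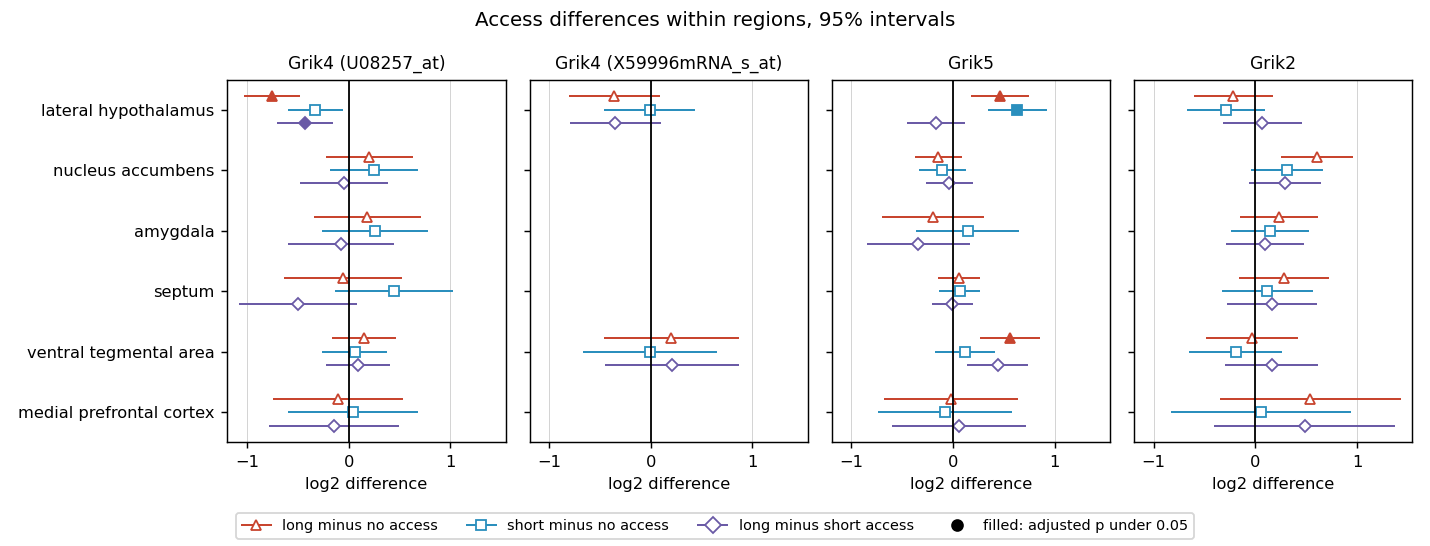
Differences in log2 signal between access groups (horizontal axis, with 95% intervals) in each region for Grik4, Grik5 and Grik2, with red triangles for long minus no access, blue squares for short minus no access and violet diamonds for long minus short access. Filled symbols passed at an adjusted p under 0.05, and X59996mRNA_s_at was tested in 2 regions. The filled symbols are Grik4 and Grik5 in the lateral hypothalamus and Grik5 in the ventral tegmental area.

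Grik1, Grik3 and the second Grik4 set where it was dim were fitted only without the filter on low signal. Of these 48 differences, 0 had an unadjusted p under 0.05 in limma, with the smallest at 0.0553. The widest were -0.70 and 1.22, both for Grik3, whose single arrays spread widely (5.81 to 7.87 with long access in the septum).

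Over the mean of the 6 regions, 0 of 12 differences passed in limma and 3 had an unadjusted p under 0.05, where 0.738% of all probe sets passed. Grik2 was higher with long than with no access by 0.24 ± 0.09 (adjusted p = 0.206), and with long than with short access by 0.21. It passed with array weights (0.26, adjusted p = 0.0359) and without no-access replicate 3 of the medial prefrontal cortex (0.30, adjusted p = 0.0469). Grik4 by U08257_at was lower with long than short access by -0.18 (adjusted p = 0.439).

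Whether the lateral hypothalamus differed from the other 5 regions was tested directly. Of 12 such differences 2 passed, where 6.6% of all did. The Grik4 difference between long and no access by U08257_at was lower in the lateral hypothalamus than the mean of the other 5 by -0.83 ± 0.23 (adjusted p = 0.0120, where 12.8% of probe sets passed), and this held without any single array (adjusted p at most 0.0356). For X59996mRNA_s_at it was -0.45 ± 0.23 (adjusted p = 0.222). The Grik5 difference between short and no access was greater by 0.60 ± 0.19 (adjusted p = 0.0446, where 6.88% passed) and that between long and no access by 0.41 ± 0.19 (adjusted p = 0.163). The Grik2 difference between long and no access was lower by -0.54 ± 0.22 (adjusted p = 0.0977).

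The Grik5 call failed without any 1 of 21 of the 63 arrays, at an adjusted p of up to 0.162. These were no-access replicates 2 and 4 and short-access replicates 1, 2, 3 and 4 of the lateral hypothalamus, no-access replicate 2 and short-access replicates 3 and 4 of the accumbens, and no-access replicates 1, 2 and 4 and short-access replicate 2 of the amygdala. The rest were no-access replicate 1 and short-access replicates 1 and 3 of the septum, no-access replicates 1 and 3 and short-access replicate 3 of the ventral tegmental area, and no-access replicates 1 and 2 of the cortex. The difference stayed between 0.51 and 0.66 throughout. No such comparison between long and short access passed for a kainate receptor probe set, and that of Grik4 was -0.29 (95% interval -0.75 to 0.16).

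The other ionotropic glutamate receptor subunits and their scaffold and trafficking partners were read from a list of 25 genes, of which 15 are on the array. In the lateral hypothalamus 21 probe sets of 13 of these genes were tested. For long against no access 4 were higher and 3 lower, where 29.7% of all probe sets passed, with a median difference of -0.01 against -0.03 over all. The NMDA receptor subunit Grin2d was higher by both of its sets (1.18 and 1.01) and Grin1, the obligatory NMDA subunit, by 0.45. The 2 sets of Grin2c disagreed, at 0.51 and -0.72. The AMPA receptor subunits Gria3 (-1.04) and Gria1 (-0.80) were each lower by 1 set, while the other 2 Gria1 sets, at -0.26 and 0.09, and the other Gria3 set, at -0.06, did not pass. Between long and short access, where 8.91% of all probe sets passed, Grin2d was higher by 1 set (0.51) and Gria1 lower by 1 (-0.83), beside Grik4. Between short and no access, where 22.4% passed, 3 of the 21 sets were higher and 1 lower. Grin2d (1.01 and 0.51) and the scaffold gene Grip2 (0.43) were higher and Gria3 (-0.63) lower. The calls against no access rest on the 4 arrays that stood apart in their controls. In the other 5 regions 0 of 333 differences of the list passed in limma, and 22 had an unadjusted p under 0.05. The share of all probe sets that passed there was 0% to 2.91% by comparison.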

How the data were processed

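The 63 arrays are of the Affymetrix Rat Neurobiology U34 type. The deposited table holds linear MAS5 signal intensities, per the submitters' processing notes. The detection calls, scaling target and version are not given in the sources used here. Their 2% trimmed mean was 250.8 to 251.3 on every array, so the authors' values had been scaled before deposit. No 2 arrays were identical (highest correlation 0.986).

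Of 1322 probe sets, 59 controls were left out of all tests. The others were rescaled per array to a 2% trimmed mean of 500, floored at 32 and turned to log2. Probe sets with a mean of at least log2 of 100 in the region were tested (718, 738, 732, 736, 722 and 680 in the lateral hypothalamus, accumbens, amygdala, septum, ventral tegmental area and cortex), or in any region for fits of all arrays (858). Of the 6 kainate receptor probe sets, 4 passed in at least 1 region, 3 of them in all 6. limma 3.58.1 (R 4.3.3) was fitted to the access groups of each region, and to all 18 groups for levels, the mean of regions and the difference between regions (lmFit, eBayes with an intensity trend, two-sided, with Benjamini-Hochberg adjustment within each contrast and a threshold of 0.05). Fits were tested on simulated data. MAS5 signal near background understates folds, and the number of arrays limits the precision.

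Every Grik1 to Grik5 probe set was named. From the list of other receptor and partner genes, up to 4 probe sets per direction that passed were named per comparison used, sets of the same gene being given beside them where they disagreed, and for each tested kainate receptor set the 3 most like it. The members and lists were chosen with earlier results of these data known. Alternatives were other scaling, floor, filter, trend, array weights, blocks, samples, adjustments and covariates. The actin covariate, the block across regions and the fit without no-access arrays were added after seeing the data.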

Additional observations from a re-analysis of the deposited data

Results flagged for a closer look

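The Grik4 difference between long and no access by U08257_at lay further below 0 in the lateral hypothalamus than on average elsewhere, by -0.83, by a test of that difference in limma (adjusted p = 0.0120). The Grik5 difference between short and no access was greater in the lateral hypothalamus than in the other 5 by 0.60 (adjusted p = 0.0446). Both use the 4 no-access hypothalamic arrays that stood apart in their controls, whose part in these differences was not tested. On 1 array, replicate 3 of long access in the nucleus accumbens, the second Grik4 probe set (X59996mRNA_s_at) read 5.33 while the other 3 of its group were at the floor of 5. Of 50 groups of 4 arrays examined for a value far from the rest, this was the 1 found. Chance alone gives about 1 in 20 where values are not tied. With the other 3 tied at the floor any value above it meets the rule, so this flag was set by the floor.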

How the results depend on the processing

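Of the 60 access differences 5 passed as reported. The count was 3 with no filter, 2 with all 63 arrays in 1 fit, 3 with adjustment over all 18 contrasts, 2 with the spike-in level, 0 with the antisense level and 3 with the actin 3′/5′ ratio added to the fit, and 3 to 5 with 1 array left out (3 without long-access replicate 2 of the lateral hypothalamus). With the antisense level, Grik5 in the lateral hypothalamus turned to -0.36 with long access and -0.14 with short access. Of the 24 regional differences 21 passed, 4 at a minimum of 2-fold, and 21 to 22 with 1 array left out. Of the 60 region pairs 42 passed, 20 at a minimum of 2-fold, and 40 to 45 with 1 array left out. Of the 12 differences between the lateral hypothalamus and the other 5 regions 2 passed, 1 with no filter, 1 with no intensity trend and 1 with a replicate block across regions, and 1 to 3 with 1 array left out. Over the mean of 6 regions 0 passed, 1 with array weights and 0 to 1 with 1 array left out.

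With the replicate number as a block within regions the counts were 5, 22, 2, 0 and 43. The labels do not say whether a replicate number links arrays, and the main fits treated them as unlinked. Within a region 27 of 63 same-numbered pairs deviated together with a correlation above 0.1, as did 22 of 144 across regions. In 3 of 18 and 1 of 45 group pairs all did so. The highest correlations were in the medial prefrontal cortex, at 0.43 to 0.73 between no and short access and 0.16 to 0.61 between short and long access. A link by number, at least there, was not tested further. Of 412 values of 33 single differences under the alternatives, 383 kept direction and side of the threshold, 26 lost the call, 1 gained it and 2 reversed. The Grik5 rise in the ventral tegmental area did not pass under 8 of 15 alternatives, among them quantile normalization (adjusted p = 0.0695) and no filter (0.120), and the Grik4 fall from short to long access under 7 of 15. The cause was not tested.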
